A study of Rattus norvegicus with 56 samples.

Results

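The nuclear genes of the mitochondrial ribosome and of the protein import machinery of mitochondria were followed in rat mammary gland after RXR treatment. The 93 genes were all those of the array whose symbol begins with Mrpl, Mrps, Timm or Tomm followed by a digit, out of 10411 genes with a probe set of 1 symbol. There were 45 Mrpl, 26 Mrps, 13 Timm and 9 Tomm genes. A gene with several probe sets was read on the one with the highest mean over the individual rats. Timm23, the channel subunit of the inner membrane translocase, lay only on a probe set annotated with several genes and is not given.

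Treated rats received an RXR treatment (compound, dose and duration not given in the sources used here), while the other rats are labelled only as control. RXR stands for the retinoid X receptors, nuclear receptors that pair with PPARs, thyroid hormone receptors and other partners. All animals were female Wistar Furth rats, an inbred strain, their age is not stated, and each gave total RNA of its mammary gland. There were 12 treated and 12 control rats with 1 array each, 2 further arrays of rat 3 in each arm, 6 pools of 2 rats, 4 pools of 3 rats and 4 arrays of a pool of 12 rats in each arm, 56 arrays in all. The pools were mixtures of labelled targets of the same rats, so they are repeat measurements and not further animals. In the treated arm 6 rats were labelled as in diestrus and 6 as in proestrus, estrus or either of them, against 9 and 3 in the control arm.

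Mitochondria keep their own ribosomes, which translate the few respiratory chain proteins encoded in mitochondrial DNA. Every protein of these ribosomes is made in the cytosol from nuclear genes and has to be imported. Precursors enter through the TOM complex of the outer membrane. From there the TIM23 complex takes those with a presequence across the inner membrane, small Tim chaperones guide hydrophobic carriers through the space between the membranes, and the TIM22 complex inserts the carriers. The rat mammary gland is a tree of epithelial ducts in a pad of fat cells, and both compartments contain mitochondria.

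Many of the members were higher after treatment, by small amounts. In individual rats 40 of 93 passed limma's test at an adjusted p of 0.05 as higher in treated rats and 1, Mrpl48, as lower. Among all 15866 probe sets tested 8.46% were called higher and 9.59% lower. The difference was positive for 81 of 93 members, against 48.9% of all probe sets, and its median was 0.15 on the log2 scale, against -0.00 over all probe sets. Without adjustment 54 members had a p under 0.05, against 29.1% of all probe sets. Of the called rises 13 reached 1.2-fold and 27 did not. Every treated rat was above the control mean for 24 members, a count that was not made over all probe sets. The groups did not overlap for 1 member only, Mrps7, while treated rats were all above control rats for 0.384% of all probe sets.

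**Figure D1:**
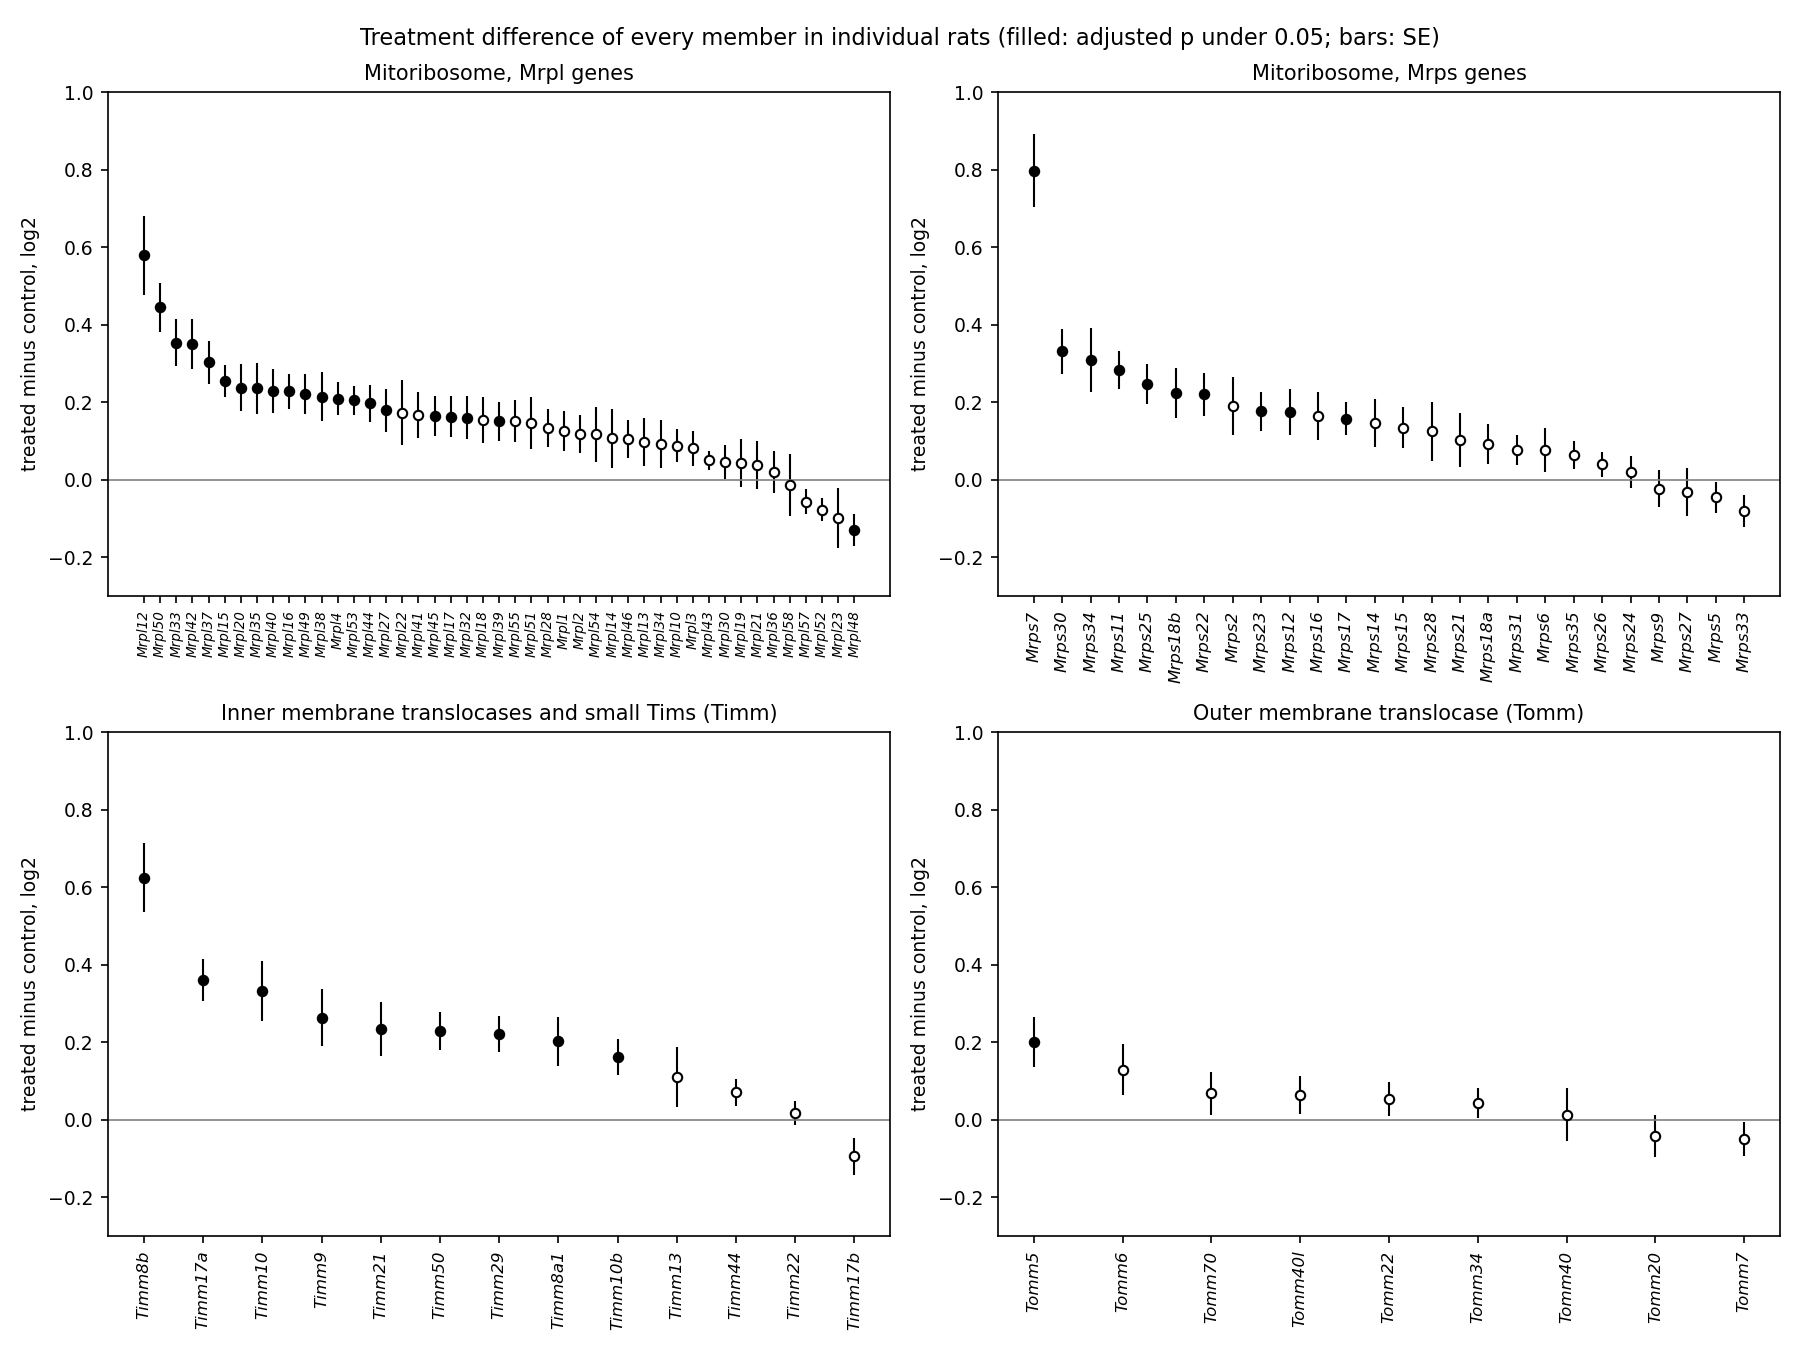
Difference between treated and control rats in log2 units for each of the 93 members, in 4 panels by family and sorted by size (12 rats a group; bars, SE; filled points, adjusted p under 0.05). Mrps7, Timm8b and Mrpl12 stand highest, 20 Mrpl, 10 Mrps, 9 Timm and 1 Tomm gene are filled above 0, and Mrpl48 is the filled point below 0.

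Mrps7, a protein of the head of the small mitoribosomal subunit, had the largest difference. Its log2 level ran between 9.60 and 10.56 in treated rats with a median of 10.06, against 9.04 to 9.57 with a median of 9.29 in control rats. The lowest treated rat was thus just above the highest control rat. The difference was 0.80 ± 0.09 (SE, n = 12 rats a group), or 1.74-fold, with an adjusted p of 2.62e-06 in limma's test. Timm8b, a small Tim chaperone, had levels of 9.38 to 10.09 with a median of 9.75 in treated rats, against 8.98 to 9.59 with a median of 9.07 in control rats. Of the treated rats 9 were above the highest control rat. The difference was 0.62 ± 0.09, or 1.54-fold (adjusted p = 2.02e-05). Mrpl12, the stalk protein of the large subunit that binds translation factors, lay between 9.01 and 9.93 with a median of 9.61 in treated rats and between 8.62 and 9.42 with a median of 8.95 in control rats. Here the groups overlapped, 8 treated rats being above every control rat, and the difference was 0.58 ± 0.10 (adjusted p = 0.000189).

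**Figure D2:**
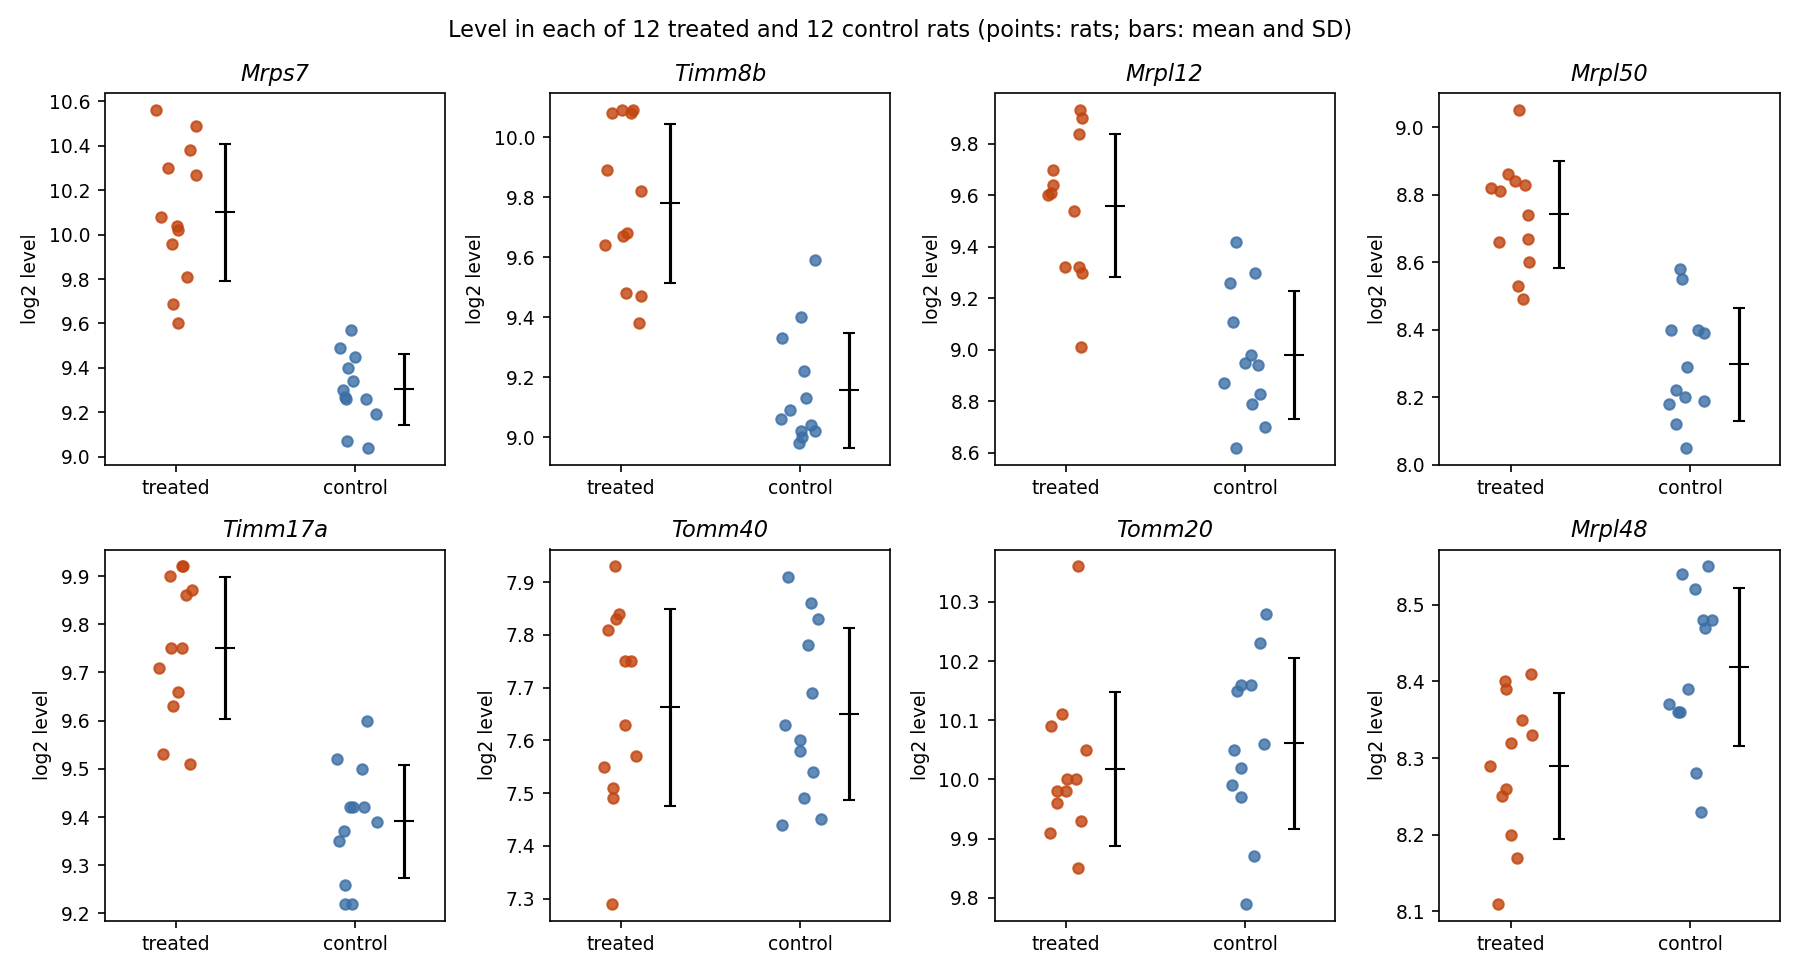
Log2 level of 8 members in each of the 12 treated rats (left) and 12 control rats (right); each point is a rat and the bar gives mean and SD. Mrps7 has no overlap, Timm8b, Mrpl12, Mrpl50 and Timm17a overlap in part, Tomm40 and Tomm20 overlap throughout, and Mrpl48 is lower in treated rats by 0.13.

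The next members in size were spread over both subunits and the inner membrane. Mrpl50, a large-subunit protein without a bacterial counterpart, ran between 8.49 and 9.05 in treated rats against 8.05 to 8.58 in control rats, a difference of 0.44 ± 0.06 (adjusted p = 2.18e-05). Timm17a, a subunit of the TIM23 channel, had 9.51 to 9.92 in treated rats against 9.22 to 9.60 in control rats, a difference of 0.36 ± 0.05 (adjusted p = 2.93e-05). For both, 10 of the 12 treated rats were above the highest control rat. Mrpl33 and Mrpl42, further large-subunit proteins, differed by 0.35 ± 0.06 each. Timm10, a small Tim that forms a hexamer with Timm9, differed by 0.33 ± 0.08, and Mrps34 of the small subunit by 0.31 ± 0.08. Mrps30 differed by 0.33 ± 0.06; its name is that of a small-subunit protein, yet it is known to sit in the large subunit.

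The promoters of the 4 members with the largest differences, and of 2 rising members that carry the palindromic core of the motif of NRF1, a regulator of nuclear genes for mitochondria, are shown so that their sequence can be set beside these values. They are RefSeq sequence of GRCr8 on the gene's own strand, up to 150 bases that end just before the annotated start. That of Timm8b has 95 bases and stops at the start of its neighbour. Capitals mark the NRF1 core CGCATGCGC, the ETS core CCGGAAG and the CCAAT box, each searched on both strands. Mrps7 lies at chr10:101342492-101342641 on the plus strand, Timm8b at chr8:59850642-59850736 (plus), Mrpl12 at chr10:106256596-106256745 (plus), Mrpl50 at chr5:68668088-68668237 (minus), Mrps18b at chr20:2842856-2843005 (plus) and Mrpl44 at chr9:88554900-88555049 (plus).
Mrps7: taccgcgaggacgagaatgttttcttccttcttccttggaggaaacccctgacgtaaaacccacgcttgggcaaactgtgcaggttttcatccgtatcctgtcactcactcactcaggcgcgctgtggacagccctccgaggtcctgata
Timm8b: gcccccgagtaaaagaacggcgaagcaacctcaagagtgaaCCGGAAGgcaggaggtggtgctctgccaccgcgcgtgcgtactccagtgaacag
Mrpl12: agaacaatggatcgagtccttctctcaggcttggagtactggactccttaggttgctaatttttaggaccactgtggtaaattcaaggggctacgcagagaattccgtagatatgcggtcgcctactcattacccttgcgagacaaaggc
Mrpl50: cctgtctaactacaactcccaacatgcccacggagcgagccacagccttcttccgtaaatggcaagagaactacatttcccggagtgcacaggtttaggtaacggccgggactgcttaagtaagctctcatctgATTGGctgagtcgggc
Mrps18b: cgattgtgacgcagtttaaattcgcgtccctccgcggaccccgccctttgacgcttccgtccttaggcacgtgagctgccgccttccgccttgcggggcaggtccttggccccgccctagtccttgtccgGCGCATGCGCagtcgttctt
Mrpl44: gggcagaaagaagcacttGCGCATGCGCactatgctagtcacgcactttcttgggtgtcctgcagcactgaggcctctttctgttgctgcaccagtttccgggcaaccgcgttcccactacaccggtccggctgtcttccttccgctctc
The stretches of Mrps7 and Mrpl12 hold none of these letters. That of Timm8b holds an ETS core 54 bases before the start, and that of Mrpl50 a CCAAT box on the other strand, read here as ATTGG. In Mrps18b and Mrpl44 the NRF1 core matches on both strands, shifted by 1 base, so that the capitals span the palindrome.

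A promoter was in the RefSeq table for 79 of the 93 members, and the 250 bases before the start were searched in these and in all 21851 protein-coding promoters. The NRF1 core was in 6 member promoters, or 7.59%, against 1.76% of all, namely those of Mrpl17, Mrpl22, Mrpl32, Mrpl44, Mrps18b and Tomm7. Its inner part GCATGCG, which overlaps it, was in 8.86% against 3.61%. The ETS core was in 22.8% of member promoters against 9.01% of all, the CCAAT box in 45.6% against 35.0%, and the YY1 core AAGATGGC in 5.06% against 1.64%. The median treatment difference was 0.17 for members with the NRF1 core and 0.13 for those without. For the ETS core it was 0.06 with and 0.15 without, and 7 of the 18 members with it were called higher or lower, against 26 of the 61 without. With the NRF1 core 4 of 6 were called, against 29 of 73 without. A match describes letters in a window and not a binding site.

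Many members share their promoter region with a gene on the other strand. Such a divergent neighbour starting within 1000 bases was present for 20 of the 79 members, or 25.3%, against 6.28% of all protein-coding promoters. Of these neighbours 13 were measured, and 2 rose while 3 fell, where 8.46% of all probe sets were called higher and 9.59% lower. The 2 that rose were Sdhd and Mrps11, and Mrps11 is itself a member. Timm8b starts 96 bases from Sdhd, a subunit of succinate dehydrogenase, and Sdhd rose by 0.50 ± 0.06 (adjusted p = 4.64e-06). Mrps7 starts 269 bases from Gga3, a clathrin adaptor of the Golgi, and Gga3 fell by 0.19 on the log2 scale with an SE of 0.06 (adjusted p = 0.0250) while Mrps7 rose. Mrps11 and Mrpl46 face each other 234 bases apart. Mrps11 rose by 0.28 ± 0.05, and Mrpl46 differed by 0.10 ± 0.05 and did not pass (adjusted p = 0.161). Timm10b rose by 0.16 ± 0.05 beside Arfip2, which fell by 0.16 with an SE of 0.04.

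The Mrpl genes, named for the large subunit, had 20 called rises among 45 and a median difference of 0.15, and the Mrps genes, named for the small subunit, had 10 among 26 and a median of 0.14. Mrps30 is counted with the Mrps genes by its symbol. Within each family the proteins with a bacterial counterpart, which carry the lower numbers and include Mrps24, were counted apart from those found only in mitochondria. Of the Mrpl genes 10 of 25 with a bacterial counterpart and 10 of 20 mitochondrial ones were called higher, and of the Mrps genes 5 of 15 and 5 of 11. Among the smaller called rises were Mrpl37 at 0.30 ± 0.05, Mrps11 at 0.28 ± 0.05 and Mrpl15 at 0.26 ± 0.04, and the smallest was Mrpl39 at 0.15 ± 0.05. Some subunits of the same particle gave differences near 0, among them Mrpl36 at 0.02 ± 0.05, Mrps24 at 0.02 ± 0.04 and Mrps27 at -0.03 ± 0.06, none past the test. Mrpl58, a peptidyl-tRNA hydrolase built into the large subunit, gave -0.01 ± 0.08.

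Mrpl48 went the other way. Its levels were 8.11 to 8.41 with a median of 8.31 in treated rats, against 8.23 to 8.55 with a median of 8.43 in control rats, and every treated rat was below the control mean. It fell by 0.13 on the log2 scale with an SE of 0.04 (adjusted p = 0.0279). The call was narrow: the adjusted p was 0.0505 after each array was centred on its median, and up to 0.0517 without treated rat 2, treated rat 10 or control rat 6. The differences were -0.01 in pools of 2, 0.03 in pools of 3 and -0.07 in pools of 12. Mrpl52, Mrpl57, Mrpl23 and Mrps33 also had negative differences, of -0.08, -0.06, -0.10 and -0.08, and did not pass. In pools of 2, 3 and 12 Mrpl52 gave -0.13, -0.145 and -0.10, and Mrpl23 gave -0.14, -0.21 and -0.165. Neither passed in pools of 2 or 3. A dimmer probe set of Mrpl52 gave -0.15 in individual rats and passed limma's test (adjusted p = 0.0147).

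In protein import the inner membrane side and the outer membrane side differed in their counts. Of the 13 Timm genes 9 rose, with a median difference of 0.22, and of the 9 Tomm genes 1 rose, with a median of 0.05. The difference between the families was not itself tested. Among the small Tim chaperones 5 of 6 rose: beside Timm8b and Timm10, these were Timm9 with 0.26 ± 0.07, Timm8a1 with 0.20 ± 0.06 and Timm10b with 0.16 ± 0.05. Timm8a1 lost its call without control rat 5 or control rat 12 (adjusted p of up to 0.0514). Timm13, the partner of the Timm8 proteins, had 0.11 ± 0.08 (adjusted p = 0.380).

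Of the 7 genes of the TIM23 and TIM22 complexes 4 rose. Beside Timm17a these were Timm21, which links TIM23 to the outer membrane and the respiratory chain, with 0.23 ± 0.07, Timm50, the receptor of TIM23, with 0.23 ± 0.05, and Timm29, a subunit of the human TIM22 complex, with 0.22 ± 0.05. Timm50 levels were 8.58 to 8.98 in treated rats against 8.41 to 8.67 in control rats, with 9 treated rats above every control rat. Timm17b, the paralog of Timm17a, had 8.45 to 8.89 in treated rats against 8.54 to 8.82 in control rats, a difference of -0.10 ± 0.05 that did not pass (adjusted p = 0.178). Timm44, which ties the import motor to the channel, gave 0.07 ± 0.04, and Timm22, the carrier channel, 0.02 ± 0.03.

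On the outer membrane only Tomm5, a small subunit of the TOM core, passed. It had levels of 8.95 to 9.42 in treated rats against 8.66 to 9.27 in control rats, and the difference was 0.20 ± 0.07 (adjusted p = 0.0313). The call of Tomm5 was lost when any of treated rats 2, 12 and 14 or control rats 5, 6, 10 and 14 was left out, with adjusted p of up to 0.0584. Tomm40, the pore, ran between 7.29 and 7.93 in treated rats and between 7.44 and 7.91 in control rats, a difference of 0.01 ± 0.07. The receptors Tomm20, Tomm22 and Tomm70 gave -0.04 ± 0.05, 0.05 ± 0.04 and 0.07 ± 0.06, and the small subunits Tomm6 and Tomm7 gave 0.13 ± 0.07 and -0.05 ± 0.04.

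**Figure D3:**
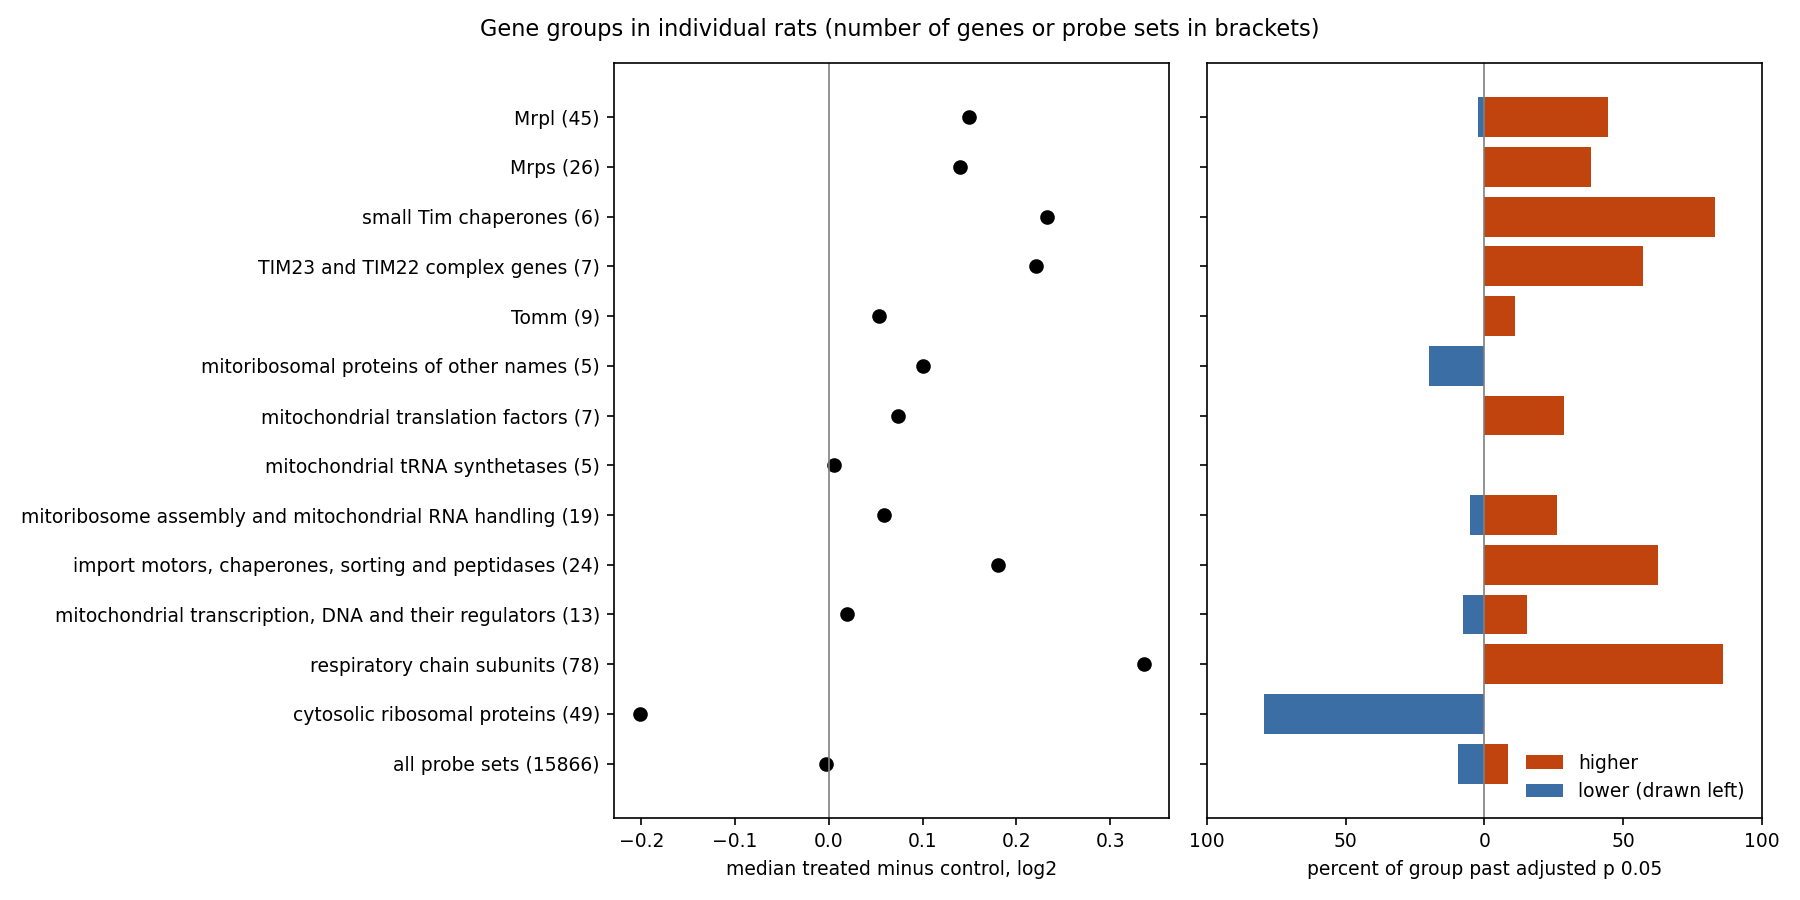
Left, median difference between treated and control rats in log2 units for each gene group; right, percent of each group called higher (drawn right of 0) or lower (drawn left of 0) at an adjusted p under 0.05. The 9 Tomm genes lie near all probe sets, with 11.1% called higher, the 13 Timm genes are split between small Tims and the TIM23 and TIM22 complexes, and respiratory chain and cytosolic ribosomal genes lie on opposite sides of 0.

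Other genes of mitochondrial translation and import gave a mixed picture, beside 8.46% of all probe sets called higher and 9.59% lower in individual rats. Of 24 measured genes for import motors, chaperones, sorting and peptidases 15 rose and none fell, with a median difference of 0.18. Pmpca, a subunit of the presequence peptidase, rose by 0.27 ± 0.04, Grpel1, the exchange factor of the import motor, by 0.41 ± 0.07, and Dnajc15, a co-chaperone at the channel, by 0.42 ± 0.07. Of 7 mitochondrial translation factors 2 rose, the elongation factors Gfm1 by 0.38 ± 0.06 and Tufm by 0.24 ± 0.06. None of 5 mitochondrial tRNA synthetases passed, and their median difference was 0.01. Of 19 genes for mitoribosome assembly and mitochondrial RNA handling 5 rose, among them the ribosome-binding factor Rbfa by 0.23 ± 0.05, the exonuclease Pnpt1 by 0.16 ± 0.04 and the rRNA methyltransferase Mrm2 by 0.17 ± 0.04. In that list Prorp, the nuclease of mitochondrial RNase P, fell by 0.25 with an SE of 0.05.

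Of 5 mitoribosomal proteins of other names none passed as higher, although 4 had positive differences and the median was 0.10. Dap3, a GTP-binding protein of the small subunit, fell by 0.16 on the log2 scale with an SE of 0.03 (adjusted p = 0.00132), with 8.36 to 8.64 in treated rats against 8.56 to 8.74 in control rats. Of 13 genes for mitochondrial transcription, mitochondrial DNA and their regulators 2 rose, where 8.46% of all probe sets were called higher and 9.59% lower. They were the elongation factor Tefm with 0.22 ± 0.06 and the nuclear receptor Esrra with 0.14 ± 0.04. Mterf1 fell by 0.17 with an SE of 0.04. Tfam gave -0.10 and Ppargc1a 0.02, neither past the test. Ppargc1a levels were 4.71 to 4.90 in treated rats and 4.69 to 4.88 in control rats, where the lowest value of the whole table was 4.12.

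Of 78 respiratory chain genes 67 rose and none fell, with a median difference of 0.34. Of 49 genes with symbols of cytosolic ribosomal proteins none rose and 39 fell, with a median of -0.20. That list was made by symbol and takes in 5 kinases named Rps6k, none of which passed. The mean log2 level of the 93 members ran between 8.56 and 8.87 in treated rats and between 8.42 and 8.77 in control rats, while that of the cytosolic list ran between 11.19 and 11.34 in treated rats and between 11.37 and 11.50 in control rats.

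Cell type markers moved with treatment as well, and in whole gland RNA fewer cells of a type and less RNA per cell cannot be told apart. The counts of these short lists stand beside 8.46% of all probe sets called higher and 9.59% called lower. Of 9 adipocyte markers 7 rose and 1, Cfd, fell, and the list mean was 10.22 to 11.19 in treated rats against 9.82 to 10.71 in control rats. Of 15 luminal epithelial markers none rose and 9 fell, with list means of 8.75 to 9.21 in treated rats against 9.08 to 9.33 in control rats. Of 9 basal markers 1 rose and 5 fell, with means of 9.33 to 9.99 in treated rats against 9.57 to 10.22 in control rats. None of 6 brown adipocyte markers passed; Ucp1, which defines these cells, had 5.70 to 6.02 in treated rats and 5.68 to 5.98 in control rats. None of 9 skeletal muscle markers passed, with means of 6.20 to 6.37 in treated rats and 6.12 to 6.40 in control rats. None of 7 lymphocyte markers passed (6.04 to 6.21 in treated rats and 6.01 to 6.26 in control rats), and none of 7 fibroblast markers (11.49 to 12.25 in treated rats and 11.02 to 12.23 in control rats). Of 3 endothelial markers 1, Vwf, fell, with means of 7.85 to 8.70 in treated rats and 8.03 to 9.08 in control rats. Of 3 macrophage markers Csf1r rose and Cd14 fell, with means of 8.82 to 9.21 in treated rats and 8.99 to 9.28 in control rats. The part of these shifts in the differences of the members was not tested.

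The mean of the members differed between repeat arrays of one labelled target, while single members could go the other way, such as Mrpl57 with 9.49, 9.42 and 9.35 on the 3 arrays of treated rat 3. The mean of the 93 members was 8.68, 8.72 and 8.81 on these arrays and 8.53, 8.62 and 8.70 on the 3 arrays of control rat 3. The ranges over these repeats were 0.12 and 0.16, and those over the 4 arrays of a pool of 12 were 0.077 for the treated and 0.069 for the control pool. They are ranges of single arrays, while the median treatment difference of 0.15 came from means of 12 arrays a group. Among repeats the member means followed the score of an array on the main component of differences between repeats. That component held 57.3% of the variance between repeats. For treated rat 3 the scores were 7.71, 6.45 and -14.2, and for control rat 3 they were 12.5, -4.53 and -11.8, so that in each rat the array with the lowest score had the highest mean. The mean score over individual rats was 0.62 for the treated arm and -0.62 for the control arm. With the score as a covariate 45 members were called higher and 2 lower, with a median difference of 0.15. The control rat with the highest member mean, rat 15 with 8.77, had the lowest score, -15.1, and the treated rat with the lowest mean, rat 6 with 8.56, had a score of -10.0.

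**Figure D4:**
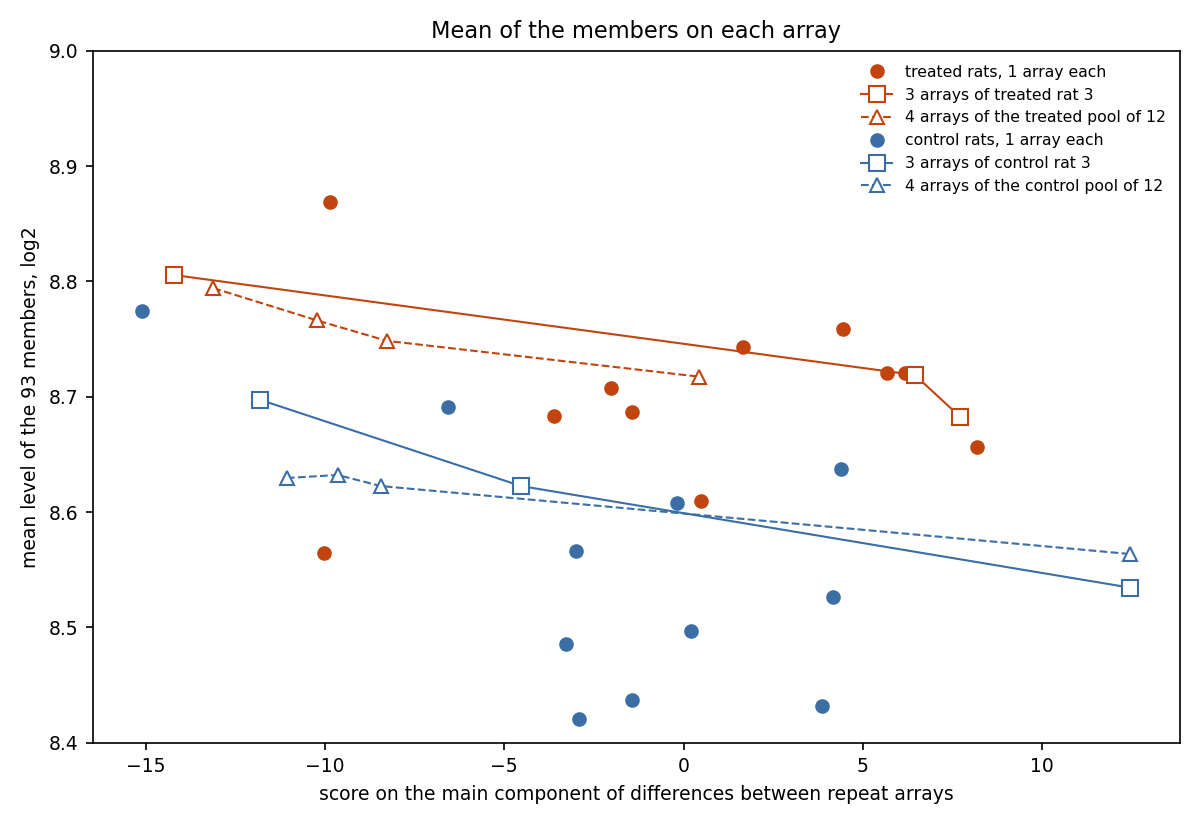
Mean log2 level of the 93 members on each array (vertical) against the score of the array on the main component of differences between repeat arrays (horizontal, no unit), for treated (red) and control (blue) rats; lines join arrays of one target. Along each line the mean is higher at low scores, except for the arrays of the control pool of 12 with scores of -11.1 to -8.44, which differ little; treated rats lie mostly above control rats at like scores.

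Of the 93 members 78 varied more between rats than between repeat arrays, a count that was not made over all probe sets. Each rat had 1 array, so the spread between rats takes in differences between arrays as well. The median SD of the members was 0.137 between rats of a group and 0.0888 between repeats, against 0.117 and 0.0962 over all probe sets. The ratio was highest for Mrpl14 at 3.94, Tomm40 at 3.46 and Mrpl12 at 3.12. It was lowest for Mrpl48 at 0.590, Mrpl43 at 0.662 and Mrps15 at 0.675, whose rats differed less than their repeats did. One array of the control pool of 12 stood apart, with a score of 12.5 against -11.1 to -8.44 for the other 3 and a correlation of 0.0801 with the first array of that pool across probe sets, each value being taken relative to the average of the individual rats. Without that array 80 members varied more between rats, and the order of the ratios changed: Mrpl14 had 3.92 and Tomm40 3.80, while Mrpl12 with 3.35 came after Mrpl21 with 3.42 and Timm10 with 3.40. Mrps33 with 0.722 then came before Mrps15 with 0.733.

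The pools gave the same contrast on separate hybridisations of mixed targets of these rats. In pools of 2, with 6 arrays a group, 14 members were called higher and none lower, against 5.15% and 3.67% of all probe sets, and the median difference was 0.14. There 80 of 93 members had a positive difference, against 48.4% of all probe sets, and 40 had an unadjusted p under 0.05, against 20.8%. In pools of 3, with 4 arrays a group, 8 were called higher and none lower, against 3.26% and 2.97%, and the median was 0.07 where the median of all probe sets was -0.03. Of the members 71 were positive, against 36.4%, and 28 had an unadjusted p under 0.05, against 19.0%. After each array was centred on its median 9 were called higher in pools of 3 and the median was 0.11. Of the 40 members that rose in individual rats 13 were also called in pools of 2 and 8 in pools of 3. Of these 40 members 37 had a positive difference in pools of 2, 3 and 12. The same counts were not made over all probe sets called higher in individual rats, and the pools hold targets of those rats. Members called in all 3 comparisons were Mrpl12, Mrpl33, Mrpl50, Mrps7, Mrps11, Timm8b and Timm17a. Mrpl51 was called in pools of 2 and not in individual rats (0.28 ± 0.07 against 0.15 ± 0.07).

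In pools of 2 the count moved to 23 when the third control pool, of rats 13 and 15, was left out, and to 8 or 9 without treated pool 1 or 2 or control pool 1, 2, 5 or 6. In pools of 3 it moved to 5 without treated pool 1 or 2 or control pool 1 or 3, and to 2 without the pools that hold rat 3.

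Mrps7 differed by a similar amount in the pools. Pools of 3 gave 10.37, 10.37, 10.14 and 9.93 in treated pools, against 9.26, 9.54, 9.35 and 9.55 in control pools, a difference of 0.78 ± 0.11 (adjusted p = 0.00183). The arrays of the pool of 12 gave 10.15, 10.10, 10.33 and 10.12 for the treated pool, against 9.32, 9.44, 9.39 and 9.35 for the control pool. Each treated array was above each control array in both sets. In rat 3, which is 1 rat an arm, the 3 arrays gave 9.69, 9.78 and 9.88 for the treated rat, against 9.27, 9.42 and 9.52 for the control rat. For Timm8b the pools of 3 gave 9.92, 9.95, 9.85 and 9.70 in treated pools, against 9.17, 9.16, 9.15 and 9.29 in control pools, a difference of 0.66 ± 0.07 (adjusted p = 0.000515). Its pool of 12 arrays gave 9.85, 9.68, 9.95 and 9.85 in the treated pool, against 9.26, 9.21, 9.29 and 9.10 in the control pool. These groups did not overlap either.

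For Mrpl12 the pools of 3 gave 9.70, 9.68, 9.59 and 9.35 in treated pools, against 8.95, 9.12, 9.21 and 9.21 in control pools, a difference of 0.46 ± 0.09 (adjusted p = 0.0121). In pools of 2 the difference was 0.55 ± 0.12 (adjusted p = 0.00887), and control pool 3 with 9.43 lay above 2 of the treated pools. The pools of 12 hold 1 mixture an arm, so their differences have no test: the 4 arrays of each gave differences of 0.80 for Mrps7, 0.62 for Timm8b, 0.52 for Mrpl12 and 0.59 for Mrpl50. The median over the members was 0.13 there, with 78 of 93 positive against 40.3% of all probe sets. Every treated array was above every control array for 39 members, against 9.54% of probe sets, and below for 2, Mrpl23 and Mrpl52, against 9.09%. In pools of 2 such a gap upward was seen for 6 members, against 2.89%, and a gap downward for none, against 1.78%. In pools of 3 it was seen for 19 members, against 4.71%, and a gap downward for 4, against 7.25%.

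**Figure D5:**
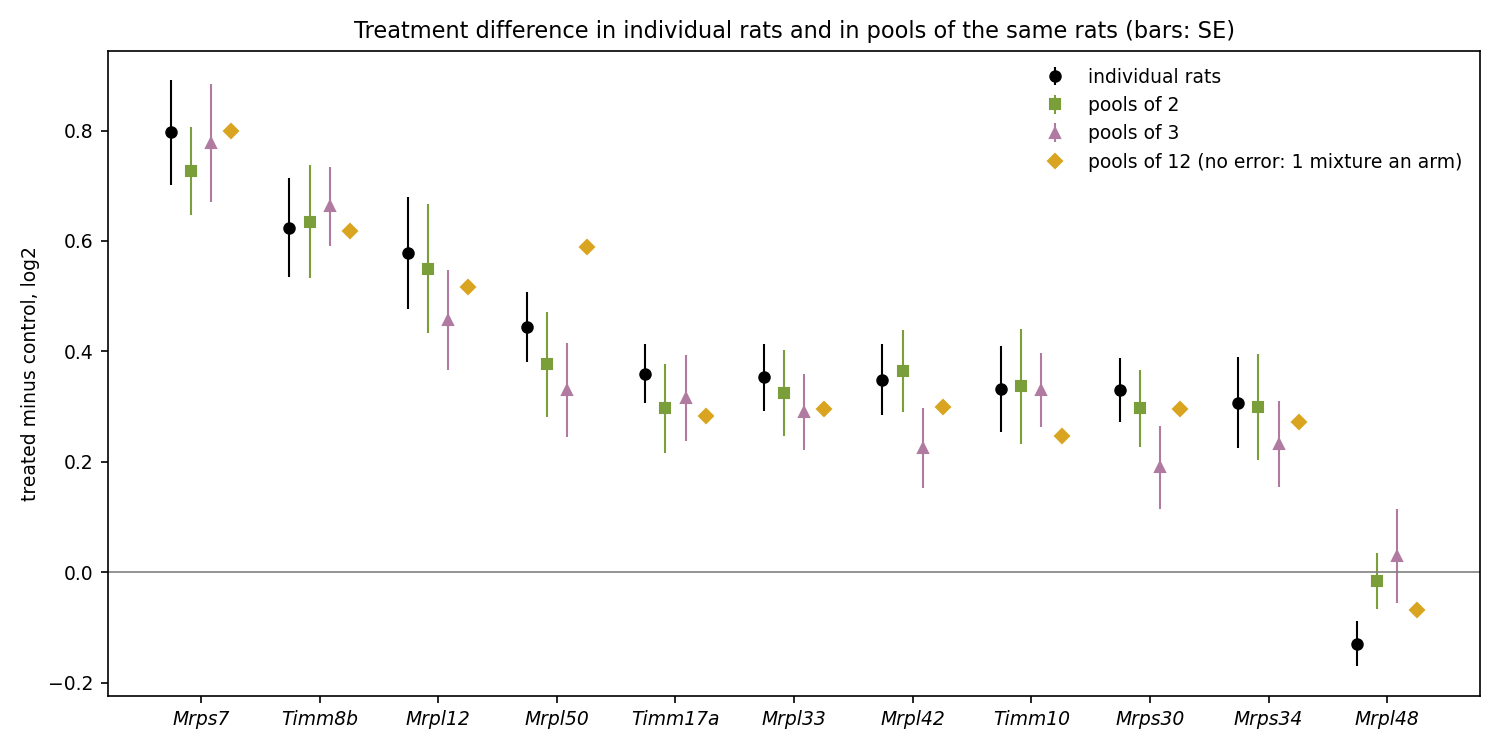
Difference between treated and control arrays in log2 units for the 10 largest called rises and for Mrpl48, in individual rats, pools of 2, pools of 3 and pools of 12 (bars, SE; pools of 12 have none). The 10 rising genes lie above 0 in all 4 kinds of array, and Mrpl48 lies at -0.13 in individual rats and between -0.07 and 0.03 in the pools.

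Oestrous stage was set against the members with treatment in the model. None of the 93 passed for rats outside diestrus against rats in diestrus, and none of the 15866 probe sets did. At an unadjusted p under 0.05 there were 2 members, against 3.66% of all probe sets. The differences were small and mostly positive: 81 of 93 were above 0, against 58.5% of all probe sets, with a median of 0.05. The smallest p-values were those of Mrpl18 at 0.14 ± 0.06, Mrps31 at 0.09 ± 0.04 and Mrps27 at 0.12 ± 0.06 (adjusted p = 0.9985 for each). The median was 0.09 among treated rats alone and 0.01 among control rats alone.

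No member passed for the interaction of treatment with stage, and no probe set did. The treatment difference was larger outside diestrus than within it for 83 of 93 members, against 53.4% of all probe sets, and the median of this difference between differences was 0.08. Control rats outside diestrus were only 3, and 1 of them was rat 3. The array of control rat 3 in this fit had a repeat-array score of 12.5 and a member mean of 8.53, while its repeat arrays gave 8.62 and 8.70. The part of that array in the difference was not tested. At an unadjusted p under 0.05 there was 1 member, Tomm22, against 2.03% of all probe sets; its treatment difference was 0.17 ± 0.07 outside diestrus and -0.01 ± 0.05 within, an interaction of 0.19 ± 0.09 (adjusted p = 0.9997). Mrpl51 and Mrpl58 followed with 0.27 ± 0.14 and 0.31 ± 0.17. Within diestrus 16 members were called higher and none lower, against 4.73% and 5.26% of probe sets, with a median of 0.09. There 76 were positive, against 47.5%, and 32 had an unadjusted p under 0.05, against 21.8%. Outside diestrus, with 3 control rats, 8 were called higher, against 1.57%, with a median of 0.18. There 83 were positive, against 47.5%, and 44 had an unadjusted p under 0.05, against 12.8%. Mrps7 differed by 0.77 ± 0.17 outside and by 0.78 ± 0.13 within diestrus, and Timm8b by 0.65 ± 0.16 and 0.58 ± 0.12.

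Of 12 members with over 1 probe set 6 had probe sets that differed in sign or call. Mrpl37 and Mrpl51 had 3 and 4 probe sets. For Mrpl37 the probe set used gave 0.30, another 0.23 (adjusted p = 0.00454) and the dimmest 0.02. For Mrpl51 the probe set used gave 0.15 and did not pass, while another gave 0.26 ± 0.08 (adjusted p = 0.0199). Its dimmest probe set gave 0.08 and the next dimmest 0.04, and neither passed. The dimmer probe set of Mrpl52 gave -0.15 ± 0.04 (adjusted p = 0.0147), where the one used gave -0.08 ± 0.03. That of Mrpl57 gave 0.03 against -0.06. The dimmer probe sets of Mrpl40 and Timm8a1 gave 0.11 and 0.12 and did not pass. Mrpl50 rose on both of its probe sets, by 0.44 ± 0.06 and 0.11 ± 0.04.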

How the data were processed

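Labelled cRNA targets of individual rat mammary glands, or equal mixtures of fragmented targets, were hybridised to a rat expression array, per the labels' protocols. The deposited table gives 1 value per probe set and array. The unit was inferred: the values of the authors, 4.12 to 14.08, are read as log2. How background and normalization were handled, and with which software, is not given in the sources used here. Array medians were 7.40 to 7.48. The number of arrays limits the precision.

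The 57 control probe sets were left out and 15866 were analysed without a filter. Symbols came from the platform annotation, updated through Entrez IDs to RefSeq genes of GRCr8: 12783 probe sets had 1 symbol, 312 several and 2771 none listed here. Source labels of some arrays of the pools of 12 read individual; title and description, which give pools, were followed.

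Treatment, stage (with treatment as a covariate) and their interaction were fitted to all probe sets with limma's lmFit and eBayes (limma 3.58.1, R 4.3.3), p-values adjusted by Benjamini-Hochberg and called under 0.05. The procedure was run on simulated data in which each value was drawn independently. Those data hold no differences shared by the probe sets of an array, so calls under such differences were not tested. Summaries used Python 3.11.15 and pandas 2.3.3. Rat numbers recur in both arms; over 10 shared numbers, deviations of same-numbered rats correlated at -0.389 to 0.358, so numbers were not taken to pair rats. The arrays standing for rats are separate animals; those of pools share these animals.

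The members, lists and rules were chosen with earlier results of these data known. Named were the 10 largest called rises, all called falls, the core import subunits, the 3 smallest p for stage and for the interaction, the 3 highest and 3 lowest ratios of spread, members whose probe sets differ, and up to 3 genes of each other list; other genes were named after their values were seen. Alternatives were scaling, a filter on dim probe sets, prior and array weights, probe set summaries, covariates, the replicate block, and arrays left out. Leaving the odd array of the control pool of 12 out of the repeats was chosen after seeing the data. Amino acid sequences were not used here.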

Additional observations from a re-analysis of the deposited data

Results flagged for a closer look

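Within groups of 4 to 10 arrays, 9 of 258 groups tested held an array far from the others by Dixon's criterion; chance flags about 1 in 20 groups. In the control pool of 12, replicate 4, the array that stood apart, had a member mean of 8.56, against 8.62 to 8.63 on the other 3, and a Timm50 level of 8.78, against 8.64 to 8.65. Replicate 3 of that pool had 9.14 for Mrpl37, against 9.22 to 9.23. Mrpl43 was 9.64 in treated pool of 12 replicate 3, against 9.50 to 9.52. Mrps34 was 9.07 in treated pool of 3 replicate 1, against 9.28 to 9.32, and 9.38 in control pool of 2 replicate 3, against 8.81 to 9.02. Mrpl51 was 8.61 in treated pool of 2 replicate 1, against 8.21 to 8.34, and 7.83 in control pool of 3 replicate 2, against 8.23 to 8.28. Timm8b was 9.29 in control pool of 3 replicate 4, against 9.15 to 9.17.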

How the results depend on the processing

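In individual rats the count of members called higher was 33 to 45 under the other settings except 1, and 34 to 50 with each rat left out in turn; in a fit of the rats in diestrus alone it was 11. The median difference was 0.09 to 0.18 under all of them. The count called lower, 1, was 0 after centring, after quantile normalization, with stage as a covariate, in diestrus only, with the replicate block and without rats 2 and 3, 2 with the mean or any of a gene's probe sets and with the repeat-array score as a covariate, and 0 to 2 with a rat left out. The adjusted p of Mrpl48 was 0.0513 with array weights, 0.0653 with stage and 0.103 without rats 2 and 3. Pools of 2 gave 11 to 19, 8 to 23 with a pool left out and 29 with the replicate block, with 1 lower member under quantile normalization, array weights, and the mean or any of a gene's probe sets. Pools of 3 gave 7 to 12, 5 to 8 with a pool left out and 2 without the pools that hold rat 3. Fits with arrays left out were also smaller, and the cause of these moves was not tested.

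The replicate block, over the 10 numbers present in both arms, gave 39 members higher and an adjusted p of 0.0651 for Mrpl48; 1 treated rat correlated best with the control of its own number. Pools of 2 of the same numbers correlated at -0.0866 to 0.596. Signs of uncalled members turned: Tomm40 was -0.0008 with array weights, -0.0144 with stage, -0.0844 in diestrus and -0.016 without rats 2 and 3, and -0.0118 to 0.0464 with a rat left out; Tomm22 was -0.0144 and Timm22 -0.0289 in diestrus; with the block Tomm20 was 0.002, Mrps27 0.004 and Mrpl58 0.03. With a rat left out Mrpl58 lay between -0.0577 and 0.0159. The ratio of spread between rats to that of repeats was 1.55, 1.56 without the third array of the control pool of 12 and 1.66 without the fourth.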
